A study of Mus musculus with 7 samples.

Results

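The photoreceptor ribbon synapse genes described here are 10 genes, chosen by the known function of their products from the 52550 genes in the deposited count table: *Ctbp2*, *Bsn*, *Pclo*, *Rims2*, *Unc13b*, *Cacna1f*, *Cacna2d4*, *Cabp4*, *Slc17a7* and the gene of Pikachurin, which the annotation names *Egflam*. All 10 were found and all 10 passed the filter on low counts, which kept 20128 genes. Total RNA-seq was made from the retinas of 7 mice aged 12.5 weeks on the C57BL/6J strain, with both retinas of a mouse in 1 library. WT mice (n = 4) carried no engineered allele, and SCA7 mice (n = 3) were homozygous for a knock-in of the polyglutamine stretch of ataxin-7 (SCA7 140Q/140Q). The expanded protein is made under the gene's own promoter, so it is present in every retinal cell type that uses *Atxn7* and is not limited to photoreceptors, and heterozygous mice were not analysed here. *Atxn7* itself was at 33.7 to 43.7 CPM (counts scaled to a common library size) in WT and 34.2 to 39.9 CPM in SCA7, a log2 fold change (SCA7/WT) of -0.06 with an adjusted p of 0.64, and a count per gene cannot show the repeat that separates the genotypes.

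Rods and cones signal by lowering a steady release of glutamate, and they do so at a terminal where a plate of protein, the ribbon, holds vesicles above the release site. The ribbon is built on RIBEYE, which is made from *Ctbp2*, and is anchored by the large scaffold proteins Bassoon and Piccolo. L-type calcium channels cluster beneath it, their opening triggers vesicle fusion, and the released glutamate is read by bipolar and horizontal cell processes that enter a fold of the terminal. Loss of the channel subunits or of CABP4 is known to impair transmission from photoreceptors to bipolar cells.

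Promoter windows of RefSeq (GRCm38.p6), which run from 250 bases before to 50 bases after a transcription start, were matched for 7 of the 10 genes, in 9 windows, of which the 2 of *Egflam* overlap almost entirely. *Rims2*, *Cacna2d4* and *Cabp4* had no entry. The windows of *Cacna1f* and *Unc13b* are shown because these genes were lower in SCA7, and those of *Ctbp2* and *Slc17a7* because these genes were not called. Capitals mark the letters TAATCC or, on the other strand, GGATTA, the core recognised by the photoreceptor homeobox factor CRX.
*Cacna1f*, chrX:7606853-7607152, plus strand: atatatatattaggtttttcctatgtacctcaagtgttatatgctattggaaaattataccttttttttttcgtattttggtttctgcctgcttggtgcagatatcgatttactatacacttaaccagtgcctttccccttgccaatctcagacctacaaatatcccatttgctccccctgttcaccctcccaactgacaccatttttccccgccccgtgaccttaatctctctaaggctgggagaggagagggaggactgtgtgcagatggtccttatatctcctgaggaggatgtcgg
*Unc13b*, chr4:43058703-43059002, plus strand: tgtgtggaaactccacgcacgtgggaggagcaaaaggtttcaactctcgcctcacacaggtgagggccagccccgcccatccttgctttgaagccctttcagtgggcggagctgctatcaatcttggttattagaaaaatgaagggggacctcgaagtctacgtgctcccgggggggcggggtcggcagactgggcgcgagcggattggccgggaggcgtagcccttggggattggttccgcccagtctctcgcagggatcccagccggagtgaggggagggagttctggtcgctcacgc
*Ctbp2*, downstream start, chr7:133015198-133015497, minus strand: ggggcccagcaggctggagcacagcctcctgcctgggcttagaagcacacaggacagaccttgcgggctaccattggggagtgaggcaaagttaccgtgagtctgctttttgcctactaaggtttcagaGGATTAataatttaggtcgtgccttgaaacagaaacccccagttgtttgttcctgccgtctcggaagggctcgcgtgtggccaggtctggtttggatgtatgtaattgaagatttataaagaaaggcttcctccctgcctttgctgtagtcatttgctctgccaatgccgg
*Slc17a7*, chr7:45163671-45163970, plus strand: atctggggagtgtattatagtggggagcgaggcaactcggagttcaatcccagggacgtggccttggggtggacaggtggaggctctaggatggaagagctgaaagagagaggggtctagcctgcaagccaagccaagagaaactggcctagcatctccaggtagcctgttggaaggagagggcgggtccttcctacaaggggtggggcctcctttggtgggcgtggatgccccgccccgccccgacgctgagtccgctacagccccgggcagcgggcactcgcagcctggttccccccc
The core was found once in the 9 windows, 121 bases before the downstream start of *Ctbp2*, and 7.06% of all 32851 RefSeq windows of the same length hold it. The letters TGCTGA, a core of NRL and MAF sites, searched on both strands, were in 0 of the 9 windows and in 19.5% of all windows. G and C made up 43.7% of the *Cacna1f* window, 52% of the *Ctbp2* window shown, 62% of the *Unc13b* window and 63.7% of the *Slc17a7* window. The other *Ctbp2* window, at the upstream start (chr7:133081811-133082110, minus strand), was 43.7% G and C and held neither core.

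In WT retina the members spanned a wide range of levels per length, given as RPK (size-factor-scaled reads per kilobase of median transcript length, mean ± SD, n = 4). *Cacna2d4*, which encodes the auxiliary channel subunit of photoreceptor terminals, was at 44459 ± 5145 RPK and *Rims2*, which encodes an active zone organiser, at 41719 ± 2777 RPK, and these highest values overlapped. *Slc17a7*, the gene of the vesicular glutamate transporter VGLUT1, followed at 25663 ± 1305 RPK. *Ctbp2* at 15675 ± 1012 RPK and *Unc13b* at 15240 ± 944 RPK did not differ beyond their spread. *Cabp4* was at 7411 ± 417 RPK, *Egflam* at 6195 ± 570 RPK and *Cacna1f*, the pore-forming channel subunit, at 4659 ± 682 RPK. The scaffold genes were the lowest, *Pclo* at 238 ± 24.0 RPK and *Bsn* at 177 ± 37.2 RPK, again with overlapping values. The order depended on the length used: with the union of exons, *Slc17a7* came first at 12955 ± 659 RPK, ahead of *Rims2* at 5542 ± 369 RPK, and *Cacna2d4* was at 3539 ± 410 RPK. The gap between the highest and the lowest member was 251-fold by median transcript length and 99.5-fold by union of exons. On the union length, *Slc17a7* stood at percentile 99.3 of 15422 tested protein-coding genes, *Rims2* at 97.8 and *Cabp4* at 96.9, while *Pclo* stood at 39.5 and *Bsn* at 33.7.

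**Figure D1:**
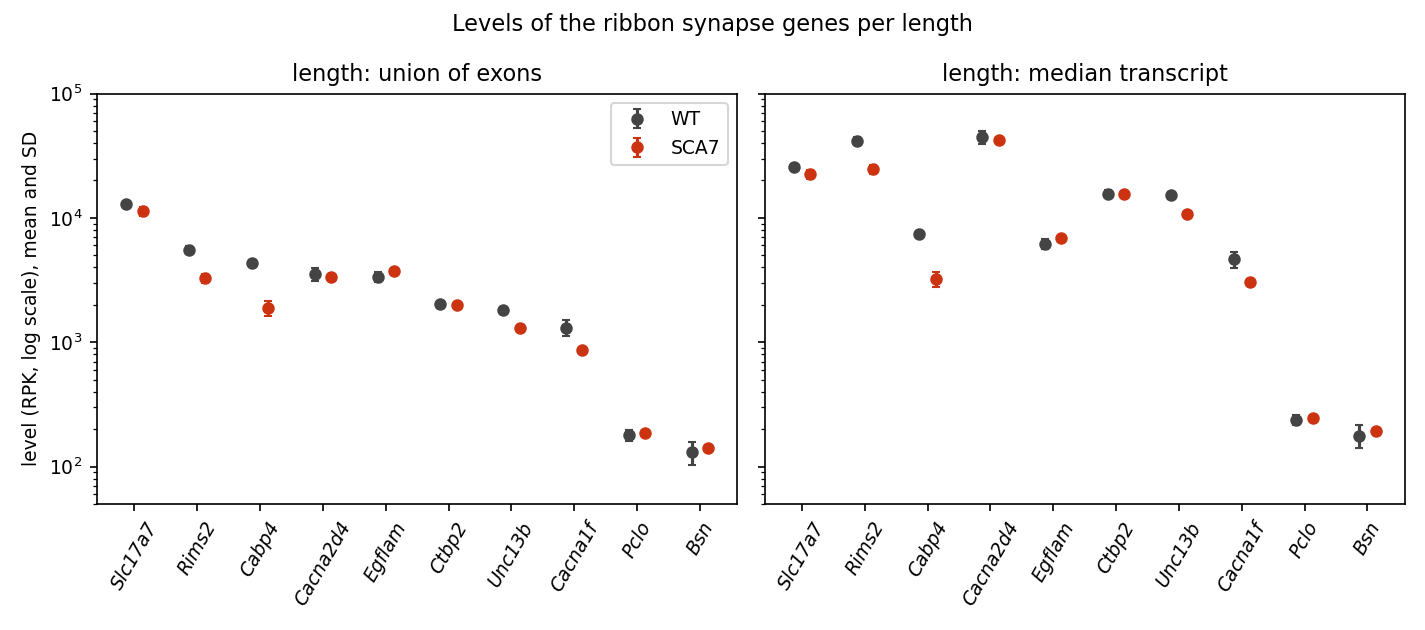
Level of each ribbon synapse gene in WT (n = 4) and SCA7 (n = 3) in RPK on a log axis, with points for means and bars for SD, by union of exons (left) and by median transcript length (right). *Slc17a7* lies highest on the left and *Cacna2d4* in WT on the right, and *Bsn* and *Pclo* lie lowest on both.

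Of the 10 members, 4 were lower in SCA7 retina and 0 were higher at an adjusted p under 0.05 (quasi-likelihood test of edgeR, Benjamini-Hochberg over all 20128 genes). Over all genes tested, 14.2% were lower and 14.2% were higher. By DESeq2 and by limma-voom 0 members were higher as well, and 0 were higher at an unadjusted p under 0.05. The 4 were *Cabp4*, *Rims2*, *Cacna1f* and *Unc13b*, a calcium sensor of the channel, an organiser of the release site, the channel pore and a vesicle priming factor. The first 3 also passed the fold limit of the study (SCA7/WT under 0.7), which 7.91% of all genes passed with the adjusted p, and *Unc13b* at 0.703 lay just outside it. The upper fold limit (above 1.3) was passed by 0 members and by 7.47% of all genes. At an unadjusted p under 0.05, *Slc17a7* was lower as well. The median log2 fold change of the 10 members was -0.14, beside -0.02 over all genes tested.

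**Figure D2:**
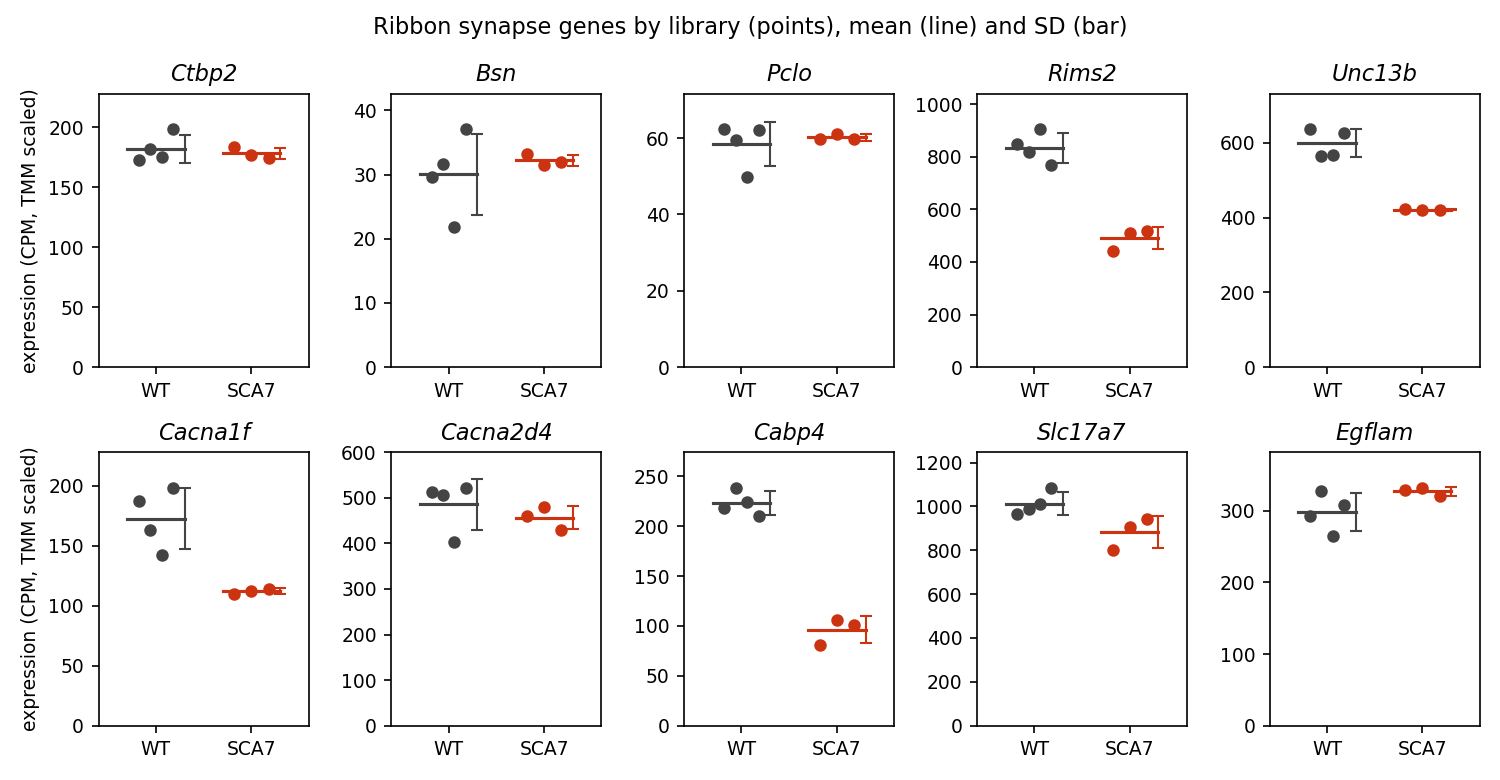
CPM of each ribbon synapse gene in the 4 WT and 3 SCA7 libraries (points), with group means (lines) and SD (bars). The SCA7 libraries lie below every WT library for *Cabp4*, *Rims2*, *Cacna1f*, *Unc13b* and *Slc17a7*, and the groups overlap for the other 5 genes.

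Of the 3 members of the calcium channel complex, *Cabp4* and *Cacna1f* were called lower and *Cacna2d4* was not, and the difference between them was not tested. *Cabp4* (ENSMUSG00000024842; GRCm38 chromosome 19 from 4135423 to 4144033) encodes a calcium-binding protein that lets the channel open at the potentials photoreceptors use. It was at 218, 239, 224 and 210.1 CPM in the WT libraries and at 80.8, 106 and 101 CPM in the SCA7 libraries. The highest SCA7 value was below the lowest WT value by a wide gap, and the level fell by 1.21 on the log2 scale (SE 0.09, adjusted p = 2.2e-06), the largest decrease among the members. Its exons share 131 bases with *Gpr152* on the opposite strand, and the strand setting of the counting is not given in the sources used here.

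*Cacna1f* (ENSMUSG00000031142; chromosome X from 7607083 to 7635196) was at 187, 163, 142 and 198 CPM in WT and at 109.8, 113 and 114 CPM in SCA7. The WT libraries were widely spread and the SCA7 libraries close together, with no overlap. *Cacna1f* fell by 0.62 on the log2 scale (SE 0.10, adjusted p = 0.00074), which is a change of -35.0%.

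*Cacna2d4* (ENSMUSG00000041460; chromosome 6 from 119236526 to 119352407) was at 512, 506, 403 and 522 CPM in WT and at 460.1, 480.03 and 430.04 CPM in SCA7. WT replicate 3 was below every SCA7 library and the other WT libraries were above them. The log2 fold change was -0.09 (95% interval -0.29 to 0.11, adjusted p = 0.5), and without WT replicate 3 it was -0.17 with an adjusted p of 0.040. Without SCA7 replicate 3 it was -0.05 with an adjusted p of 0.80. *Cacna2d4* was called in 1 of the 7 fits with a library left out.

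Ratios within a library do not depend on the scaling between libraries. These pairs were chosen after the values were seen, so they carry no test. The log2 ratio of *Cabp4* to *Cacna1f* was 0.38 ± 0.27 in WT (SD, n = 4) and -0.23 ± 0.19 in SCA7 (n = 3). The log2 ratio of *Cacna2d4* to *Cacna1f* was 1.496 ± 0.10 in WT and 2.02 ± 0.10 in SCA7. That of *Cacnb2*, which encodes the beta subunit of the channel, to *Cacna1f* was 0.47 ± 0.15 and 0.71 ± 0.04. The log2 ratio of *Slc17a7* to *Gnat1*, the rod transducin gene, was -3.34 ± 0.05 in WT and -1.77 ± 0.11 in SCA7. In each pair the genotypes did not overlap, and the SCA7 libraries held less *Cabp4* and more *Cacna2d4* and *Cacnb2* RNA for each unit of *Cacna1f* RNA.

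**Figure D3:**
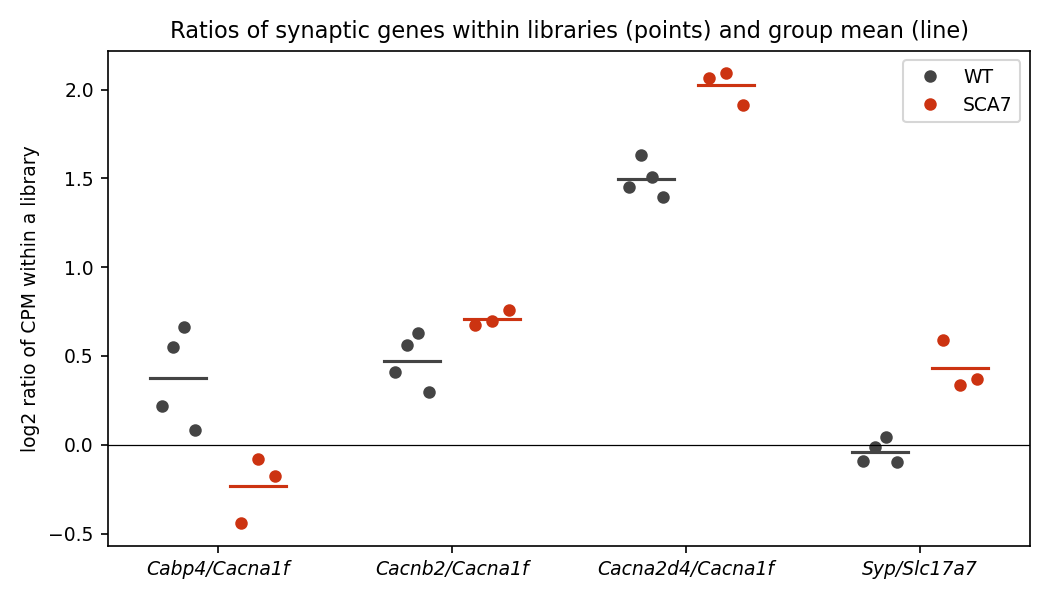
Log2 ratio of CPM for 4 pairs of genes in each library (points), by genotype, with lines for group means. The *Cabp4* to *Cacna1f* ratio is lower in all 3 SCA7 libraries, and the other 3 ratios are higher.

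At the active zone, *Rims2* (ENSMUSG00000037386; chromosome 15 from 39198261 to 39684372) encodes the RIM protein that binds calcium channels and priming factors. It was at 847, 817, 904 and 769 CPM in WT and at 442, 510 and 519 CPM in SCA7. All 3 SCA7 libraries were far below the lowest WT library. *Rims2* fell by 0.77 on the log2 scale (SE 0.08, adjusted p = 3.2e-05), which is a change of -41.2%.

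*Unc13b* (ENSMUSG00000028456; chromosome 4 from 43058953 to 43264871) encodes Munc13-2, which readies docked vesicles for fusion. It was at 637, 566, 568 and 627 CPM in WT and at 422, 421 and 421 CPM in SCA7. The SCA7 libraries were nearly equal and all below WT. *Unc13b* fell by 0.51 on the log2 scale (SE 0.07, adjusted p = 0.00019), which is a change of -29.7%.

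The ribbon and its anchors were not called. *Ctbp2* (ENSMUSG00000030970; chromosome 7 from 132987563 to 133124354), which yields RIBEYE in the terminal and the corepressor CtBP2 elsewhere, was at 172.5, 182.1, 175.0 and 198.3 CPM in WT and at 183.3, 176.6 and 174.3 CPM in SCA7. The groups overlapped and the log2 fold change was -0.03 (95% interval -0.17 to 0.11, adjusted p = 0.76). Counts per gene join its 20 annotated transcripts, so RIBEYE and the corepressor were not measured apart, and its exons share 314 bases with *Fgfr2* on the same strand.

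*Bsn* (ENSMUSG00000032589; chromosome 9 from 108096022 to 108190384), the gene of Bassoon, was at 29.7, 31.6, 21.9 and 37.1 CPM in WT and at 33.2, 31.5 and 32.0 CPM in SCA7. The SCA7 libraries lay inside the WT range, and the log2 fold change of 0.10 had the widest interval of the members (-0.23 to 0.43, adjusted p = 0.65). *Pclo* (ENSMUSG00000061601; chromosome 5 from 14514918 to 14863459), the gene of Piccolo, was at 62.3, 59.6, 49.9 and 62.1 CPM in WT and at 59.8, 61.1 and 59.6 CPM in SCA7. It too stayed inside the WT range, with a log2 fold change of 0.04 (95% interval -0.12 to 0.21, adjusted p = 0.73), and its exons share 429 and 496 bases with antisense transcripts. Without WT replicate 3 the differences changed sign, to -0.025 for *Bsn* (adjusted p = 0.82) and -0.028 for *Pclo* (adjusted p = 0.69).

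*Slc17a7* (ENSMUSG00000070570; chromosome 7 from 45163949 to 45176142), whose product loads glutamate into vesicles, was at 967, 987, 1009 and 1085 CPM in WT and at 799, 906 and 940.3 CPM in SCA7. Every SCA7 library was below every WT library, as for 18.3% of all genes tested, but the difference missed the threshold (log2 fold change -0.20, 95% interval -0.37 to -0.03, adjusted p = 0.076). Without WT replicate 3 the log2 fold change was again -0.20 and the adjusted p was 0.0496. Without SCA7 replicate 1 the log2 fold change was -0.13 and the adjusted p was 0.32. The threshold was passed in 1 of the 7 fits with a library left out.

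*Egflam* (ENSMUSG00000042961; chromosome 15 from 7206120 to 7398395) encodes Pikachurin, a matrix protein of the cleft that binds dystroglycan and brings bipolar cell dendrites to the ribbon. It was at 293, 328, 265 and 308 CPM in WT and at 329, 332 and 320.4 CPM in SCA7. SCA7 replicates 1 and 2 were just above the highest WT library and replicate 3 lay inside the WT range, so the groups overlapped, with a log2 fold change of 0.13 (95% interval -0.03 to 0.30, adjusted p = 0.21). Its exons share 198 bases with an antisense transcript.

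**Figure D4:**
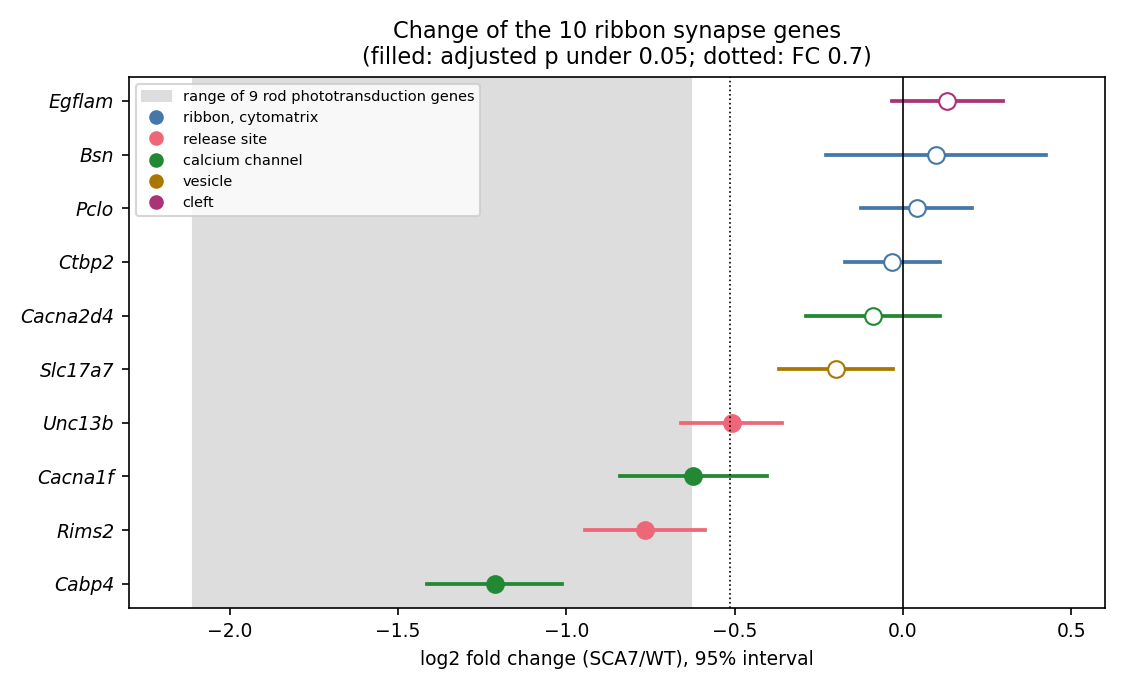
Log2 fold change (SCA7/WT) of each ribbon synapse gene (points, filled at an adjusted p under 0.05) with its 95% interval, unadjusted for the number of genes, coloured by role; the grey band is the range of 9 rod phototransduction genes and the dotted line the fold limit of 0.7. The 4 filled points and *Slc17a7* have intervals below 0.

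The members also differed in the lists that the study compiled from other data. *Rims2*, *Cacna1f* and *Cabp4* are on its list of photoreceptor specific genes. A list of CRX targets holds 7 members, namely all but *Ctbp2*, *Bsn* and *Pclo*. No association between these lists and the calls was tested. In bulk retina, fewer cells of a type and less RNA per cell cannot be told apart.

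Markers of several cell types moved with the genotype. Of 10 rod markers 10 were lower, with a summed level of 63106 to 65349 CPM in WT and 17429 to 22321 CPM in SCA7. Of 10 cone markers 10 were lower, from 1509 to 1809 CPM in WT and from 274 to 303 CPM in SCA7. Of 8 bipolar markers 4 were lower, with summed levels of 718 to 853 CPM and 682 to 704 CPM, and of 10 microglia markers 10 were higher, with 57.0 to 69.1 CPM and 135 to 152 CPM. Of 6 pigment epithelium markers 3 were lower, with 100.4 to 202 CPM and 19.0 to 45.8 CPM, and of 6 Müller glia markers 3 were higher and 1 was lower. Of 8 amacrine markers 4 were lower. Of 4 horizontal cell markers 1 was lower (*Calb1*) and of 7 ganglion cell markers 1 was lower, single genes beside the 14.2% of all genes called lower, and 0 of 5 lens markers were called. No marker of these lists was at 0 in the libraries. Their part in the results for the members was not tested.

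Of the members, 7 are not on the list of photoreceptor specific genes, so their counts can hold RNA of other retinal cells. The 9 genes of the rod phototransduction list served as a comparison, which is therefore not confined to photoreceptors. All 9 were lower and passed the fold limit, and their log2 fold changes ran from -2.11 to -0.63 around a median of -1.11. *Gnat1*, the rod transducin alpha subunit, fell by 1.76 on the log2 scale (adjusted p = 5.1e-07) and *Cngb1*, a subunit of the rod channel, fell by 0.63 (adjusted p = 0.00019). *Rims2* at -0.77 (SE 0.08) and *Cacna1f* at -0.62 (SE 0.10) lay close to *Cngb1* (SE 0.08), and these differences were not resolved from their errors. No test of the difference between the lists was made.

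Of 108 other synaptic genes in 8 lists of known function, 27 were lower and 13 were higher, beside 14.2% of all genes in each direction. The higher count was 8 without WT replicate 1 and 7 without SCA7 replicate 1 or without SCA7 replicate 3. Of these 40 calls, 29 held in all 7 fits with a library left out, and 11 were lost in at least 1 of them. The scaffold genes of the terminal and active zone (16 genes) held 7 lower and 2 higher, with a median log2 fold change of 0.00. *Unc119*, which encodes a lipid-binding protein of photoreceptor terminals, was at 1590 to 1946 CPM in WT and 706 to 879 CPM in SCA7 and fell by 1.13 on the log2 scale (adjusted p = 5.9e-06). *Mpp4*, a scaffold of the photoreceptor terminal membrane, fell by 0.73 (adjusted p = 2.9e-05), and *Ano2*, the calcium-gated chloride channel held there, fell by 0.50 (adjusted p = 0.0019). *Erc2*, a partner of Bassoon and the RIM proteins, fell by 0.26 (adjusted p = 0.003), whereas *Ppfia2*, which encodes a liprin, rose by 0.34 (adjusted p = 0.0033). *Erc1* rose by 0.19 (adjusted p = 0.038), a call lost without WT replicate 1 or any 1 SCA7 library.

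The other calcium channel genes (14) held 6 lower and 0 higher, beside 14.2% of all genes in each direction. Without WT replicate 3 the list held 6 lower and 1 higher. In bulk retina the counts of this list are not limited to photoreceptor terminals. *Cacnb2* was at 219 to 249 CPM in WT and 175 to 194 CPM in SCA7 and fell by 0.37 on the log2 scale (adjusted p = 0.0014). *Cacna2d3*, an auxiliary subunit, fell by 0.77 (adjusted p = 5.8e-06), *Cabp2*, a relative of *Cabp4*, fell by 0.74 (adjusted p = 0.00047), and *Cacna1c* fell by 0.25 (adjusted p = 0.034). The call of *Cacna1c* was lost without WT replicate 1, WT replicate 2 or any 1 SCA7 library.

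Among 13 vesicle fusion genes 4 were lower and 2 were higher, beside 14.2% of all genes in each direction. *Stx3*, the syntaxin of ribbon terminals, fell by 0.41 on the log2 scale (adjusted p = 0.00063), and *Cplx4*, a complexin of photoreceptors, fell by 0.32 (adjusted p = 0.0026). *Cplx3*, the other retinal complexin of this kind, was at 240 to 317 CPM in WT and 271 to 315 CPM in SCA7 and was not called (adjusted p = 0.31). *Syt1*, a calcium sensor for fusion, rose by 0.32 (adjusted p = 0.007) and *Doc2b*, another calcium-binding protein, rose by 0.64 (adjusted p = 0.0022).

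Vesicle protein and glutamate genes (12) held 1 lower and 3 higher, beside 14.2% of all genes in each direction. *Synpr* fell by 0.35 on the log2 scale (adjusted p = 0.016), a call lost when any 1 SCA7 library was left out (adjusted p up to 0.063). *Syp*, the vesicle protein synaptophysin, was at 907 to 1040 CPM in WT and 1145 to 1216 CPM in SCA7 and rose by 0.27 (adjusted p = 0.014), while *Slc17a7* was not called. The call of *Syp* was lost without SCA7 replicate 1 or 3 (adjusted p up to 0.064). The log2 ratio of *Syp* to *Slc17a7*, a pair also chosen after the values were seen and given with no test, was -0.04 ± 0.07 in WT and 0.43 ± 0.14 in SCA7. *Syngr3*, a vesicle membrane protein, rose by 0.47 (adjusted p = 0.00026) and *Slc1a2*, a glutamate transporter, rose by 0.42 (adjusted p = 0.0048).

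Vesicle recycling genes (17) held 1 lower and 2 higher, beside 14.2% of all genes in each direction. *Ap2a2*, an adaptor subunit for clathrin, fell by 0.46 (adjusted p = 0.00026), *Cltb*, a clathrin light chain, rose by 0.48 (adjusted p = 0.00051) and *Ap2a1* rose by 0.18 (adjusted p = 0.042). Leaving out WT replicate 1, WT replicate 2 or any 1 SCA7 library ended the call of *Ap2a1*, and without WT replicate 3 the list held 3 lower and 3 higher. Cleft and dystroglycan genes (16), the partners of Pikachurin, held 2 lower and 3 higher. *Dag1*, the dystroglycan gene, was at 34.7 to 43.9 CPM in WT and 50.7 to 54.5 CPM in SCA7 and rose by 0.42 (adjusted p = 0.0015). *Dmd*, the dystrophin gene, fell by 0.37 (adjusted p = 0.002), *Lrit2* fell by 0.26 (adjusted p = 0.011) and *Pomt1*, a dystroglycan glycosylation enzyme, rose by 0.21 (adjusted p = 0.024). The call of *Lrit2* was lost without SCA7 replicate 1, and that of *Pomt1* without WT replicate 1, WT replicate 2 or any 1 SCA7 library; the list held 1 higher gene without WT replicate 1 or any 1 SCA7 library. Genes of conventional synapses (10) held 0 lower and 1 higher, *Stx1a*, which rose by 0.24 (adjusted p = 0.045). This call was lost in 6 of the 7 fits with a library left out, all but the fit without WT replicate 3, and 1 other gene of the list was lower without WT replicate 1.

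A list of 10 genes known from the bipolar cell side of the synapse held 6 lower and 0 higher, with a median log2 fold change of -0.36. Photoreceptors also transcribe *Lrit3*, *Rgs9bp* and *Gnb5*, which are among the 6, so the list does not measure bipolar cells alone. *Trpm1*, the channel closed by glutamate in ON bipolar cells, was at 191 to 232 CPM in WT and 157 to 165 CPM in SCA7 and fell by 0.40 (adjusted p = 0.0014). *Lrit3*, needed for its placement, fell by 0.91 (adjusted p = 1.1e-05), *Rgs9bp*, an anchor of RGS proteins, fell by 0.90 (adjusted p = 0.00045), and *Rgs7* fell by 0.32 (adjusted p = 0.0029). The bipolar markers given above were lower for 4 of 8 genes, and their part in these values was not tested.

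**Figure D5:**
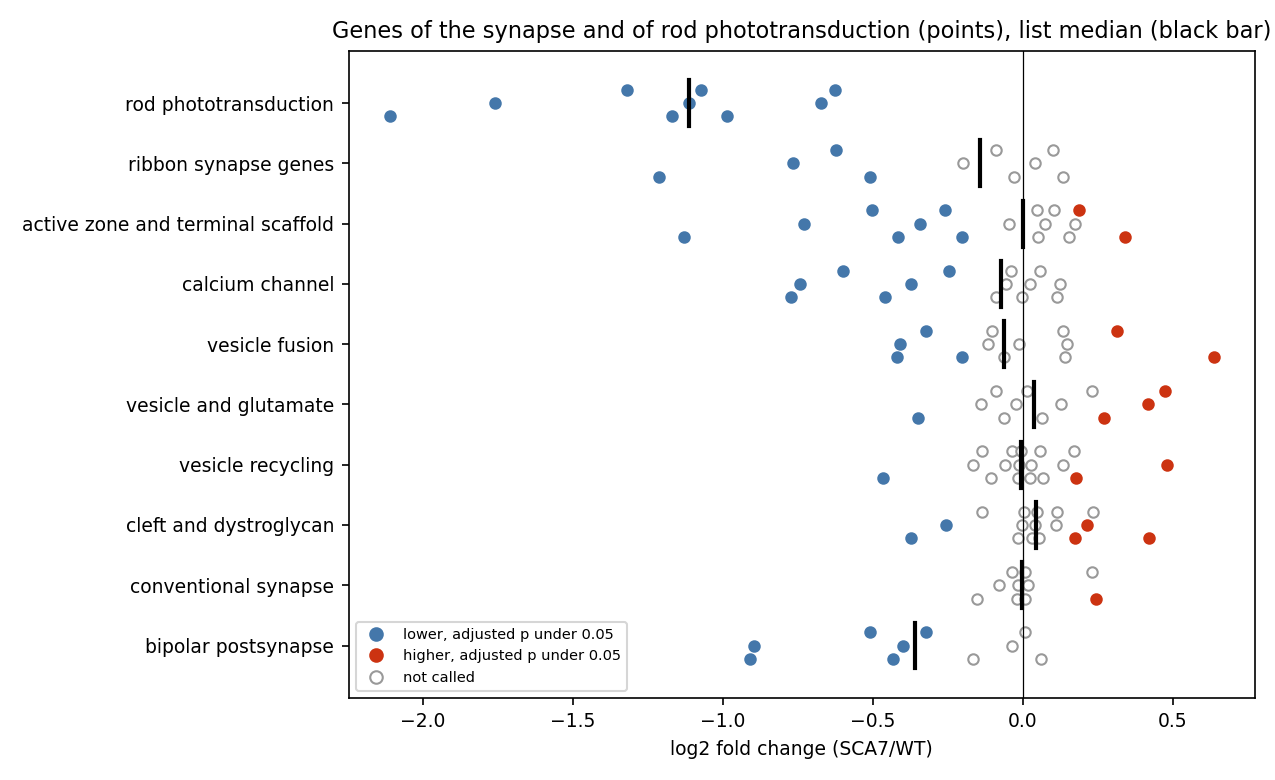
Log2 fold change (SCA7/WT) of each gene (points) in the ribbon synapse list, the 8 other synaptic lists and the rod phototransduction list; filled points passed an adjusted p under 0.05 and black bars are list medians. All 9 rod phototransduction genes lie below 0, and the ribbon synapse genes are split between 4 lower and 6 not called.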

How the data were processed

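The authors prepared stranded libraries from retinal RNA depleted of ribosomal RNA, mapped the reads to mm10 with TopHat2 2.0.14 and Bowtie2 2.1.0 and assigned them to Ensembl genes with HTSeq 0.6.1 (tools and versions from the submitters' processing notes). The deposited values are raw counts, not normalized. Totals ranged from 56497675 to 96635832 counts per library. By these totals alone, before scaling by TMM, 1 count was worth 0.0103 to 0.0177 CPM. The top 100 genes held 32.3% to 36.7% of counts in WT and 26.0% to 26.5% in SCA7, and WT replicate 3 stood apart with the highest share and the lowest TMM factor (0.890).

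Counts were filtered by filterByExpr, scaled by TMM and compared between genotypes, without covariates, by the robust quasi-likelihood test of edgeR 4.0.16 in R 4.3.3, and p-values were adjusted over the whole table by Benjamini-Hochberg. Apart from the worth of 1 count given above, CPM values use the TMM-scaled library sizes. Positions and lengths came from GENCODE M21 (GRCm38), which annotated 52403 of 52550 genes. Alternatives were DESeq2 1.42.0 (size factors or Wald test), limma-voom (limma 3.58.1), TMM without photoreceptor specific genes, other count filters, an adjusted p under 0.01, the replicate number as a block and each library left out. The steps were tested on simulated counts. The members and lists were chosen with earlier results of these data known. Beside the members, genes were named as the 2 lowest and 2 highest log2 fold changes among called genes of each list with a mean of at least 1 CPM, together with usual photoreceptor forms. Some genes that this rule names are not reported here.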

Additional observations from a re-analysis of the deposited data

Results flagged for a closer look

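*Cacna2d4* was singled out because 1 of its 4 WT libraries lay far from the others: WT replicate 3 was at 403 CPM and the other 3 at 506 to 522 CPM, a gap of 0.862 of the whole WT range, above Dixon's critical value for 4 samples. The WT group of each of the 10 members was tested in this way, and chance flags about 1 in 20 groups. Without that library the log2 fold change of *Cacna2d4* was -0.17 in place of -0.09.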

How the results depend on the processing

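The calls of *Cabp4*, *Rims2*, *Cacna1f* and *Unc13b* kept their direction and their side of the threshold under all 15 alternatives, with log2 fold changes from -1.29 to -1.10, from -0.81 to -0.69, from -0.71 to -0.54 and from -0.54 to -0.48. With a library left out, 4 to 6 members were lower (6 without WT replicate 3, where *Cacna2d4* and *Slc17a7* joined), 0 were higher and 3 to 4 passed the lower fold limit (4 without WT replicate 2 or 3, where *Unc13b* joined). Among the other synaptic genes 22 to 30 were lower and 7 to 17 were higher with a library left out. The higher count, 13 in the main fit, was 8 without WT replicate 1, 7 without SCA7 replicate 1 and 7 without SCA7 replicate 3. It was 17 without WT replicate 3, 16 without WT replicate 4 and 7 at an adjusted p under 0.01 with all libraries. The cause of these changes was not tested. The sign turned for *Bsn* (-0.025, against up to 0.21 without another library) and *Pclo* (-0.028, against up to 0.072) without WT replicate 3, and for *Ctbp2* (range -0.057 to 0.012) without WT replicate 4. Under the replicate block 18 other synaptic genes were higher and the call of *Stx1a* was lost. The block made 1 member higher (*Bsn*, log2 fold change 0.23, adjusted p = 0.029) and turned *Ctbp2* to 0.013 (adjusted p = 0.92). Deviations of libraries that share a replicate number correlated at 0.0096 to 0.197, and 1 of 3 SCA7 libraries correlated best with its own number. Libraries that share a replicate number have neighbouring numbers in their sample titles, and whether their mice were littermates is not stated. The numbers were not taken as pairs, but this check rests on 3 SCA7 libraries and cannot exclude a pairing. The cause of the change under the block was not tested. By union of exons the ratio of the highest to the lowest WT level was 99.5, because the length differs by construction. Where a group has 3 or 4 mice, an adjusted p above the threshold does not show equal levels, and the widest interval among the members was that of *Bsn*, which had the fewest counts (1167 in WT replicate 3).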
